A study of Homo sapiens with 6 samples.

Results

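The HOX genes encode homeodomain transcription factors that lie in 4 clusters, HOXA to HOXD. They were examined here in a human melanoma line with and without prolonged inhibition of mutant BRAF. A member was any gene whose symbol is HOX followed by a cluster letter and a paralogue number and which had a probe set annotated to that symbol alone. RefSeq lists 39 such genes, and 27 of them were measured, among 18417 genes in all. They comprised HOXA2, all 10 HOXB genes, 7 of 9 HOXC genes and all 9 HOXD genes. HOXC4 and HOXC6 are each annotated only together with other symbols and were left out. The 10 further HOXA genes are not analysed here, so nothing below describes the HOXA cluster beyond HOXA2. Each member had 1 probe set, and the gene number of all 27 matched the RefSeq record of the same symbol.

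WM164 is a BRAF-mutant human melanoma cell line whose tissue of origin is given as a lymph node metastasis. Parent samples (3 arrays) received DMSO, the solvent control, for a time that the labels do not state. IDTC samples (3 arrays), named for drug tolerance induced in the same line, received PLX4032 (vemurafenib), an inhibitor of mutant BRAF, at 500 nM over 16 days. All 6 samples come from 1 line kept in triplicate, with RNA isolated from each sample on its own, and nothing says that the cultures were separate experiments, so the spread behind each p-value is that between these samples and may be technical.

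Homeodomain proteins bind short AT-rich DNA sites, and HOX proteins gain much of their site preference by binding together with PBX, MEIS and PKNOX cofactors. The order of the genes along a cluster, numbered from 1 to 13 as paralogue groups, follows the order of their expression along the body axis, from hindbrain to tail. Adult cells tend to keep a HOX pattern that reflects the position they came from, held by Polycomb and Trithorax chromatin complexes, and cranial neural crest differs from trunk neural crest, the origin of most skin melanocytes, in the HOX genes it uses.

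Values are log2 expression as deposited, already normalized by the authors. Over all genes, arrays of the same group correlated at 0.995 to 0.998 and arrays of different groups at 0.953 to 0.957. Of 7 melanocyte markers measured, 5 were called higher and 1 lower in IDTC samples, so that 85.7% were called, beside 46.6% of all genes. MLANA stood at 10.94 ± 0.03 in Parent and 12.39 ± 0.05 in IDTC samples and TYRP1 at 4.69 ± 0.10 and 7.58 ± 0.25 (SD, n = 3). The table has no detection call. As a guide to dim signal, the 95th percentile of the mean values of 341 olfactory receptor genes, a family melanoma cells are not known for, was 6.05. Probe sets differ in how brightly they report the same amount of RNA, so this line is a guide and not a threshold of detection. By this guide TYRP1 was dim in the Parent samples and the other 6 melanocyte markers lay above the line in both groups, while 17 HOX genes lay above the line and 10 at or below it. By their mean over all arrays the 7 melanocyte markers lay above the line, where 62.2% of all genes were called.

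HOX expression shifted in the drug-tolerant cells for a minority of the measured members, and by less than 2-fold in each. HOXD13, HOXB2, HOXB6, HOXC5, HOXB4 and HOXB3 fell, HOXD8 and HOXC13 rose, and 19 members were not called (limma with Benjamini-Hochberg adjustment over all genes, threshold 0.05). The falls ranged from 0.21 log2 for HOXB3, which is 1.16-fold, to 0.85 log2 for HOXD13, which is 1.8-fold, and the rises were 0.21 for HOXC13 and 0.34 for HOXD8. In all, 8 of 27 HOX genes (29.6%) were called, against 46.6% of all genes tested, with 6 of 27 called lower, against 24.9% of all genes, and 2 of 27 called higher, against 21.7%. At 2-fold or more, 0 of 27 HOX genes were called, against 9.21% of all genes. The median log2 fold change was -0.04 over the HOX genes and -0.01 over all genes, and the median absolute change was 0.20 and 0.21. All 8 called members lay among the 17 above the olfactory receptor line, which is 47.1% of them, and 62.2% of all genes above that line were called.

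**Figure D1:**
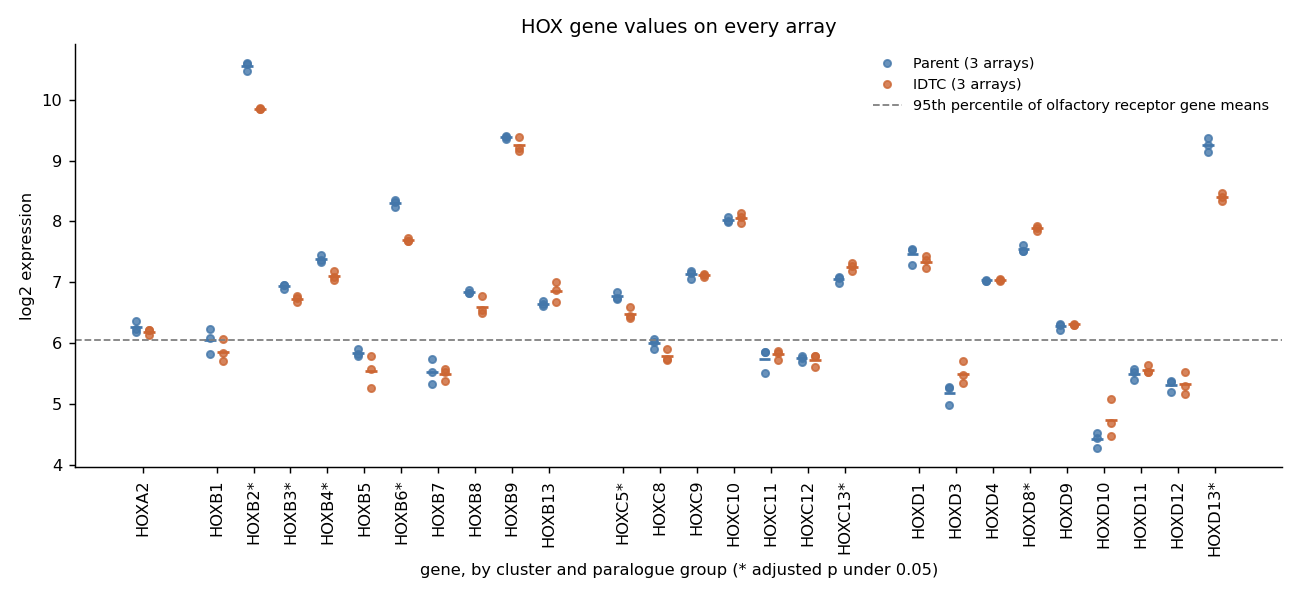
log2 expression (vertical axis) of the 27 HOX genes on each of the 6 arrays, grouped by cluster and ordered by paralogue group. Points are arrays, short bars are group means (n = 3), and the dashed line marks the 95th percentile of olfactory receptor gene means at 6.05. HOXB2, HOXB6 and HOXD13 show the widest separation between Parent and IDTC arrays.

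HOXD13, the gene at the 5′ end of the HOXD cluster that patterns digits and the urogenital tract, had the largest change. Its log2 values were 9.14, 9.25 and 9.37 in the Parent arrays and 8.40, 8.47 and 8.34 in the IDTC arrays. All 3 IDTC values lay below the lowest Parent value, and the fall was 0.85 ± 0.07 (log2 fold change ± SE, adjusted p = 5.4e-05, limma). The brightest HOX probe set was that of HOXB2, a gene of hindbrain segments whose product acts in facial motor neurons. It read 10.60, 10.58 and 10.48 in Parent and 9.84, 9.87 and 9.85 in IDTC arrays, again without overlap. HOXB2 fell by 0.70 ± 0.05 (adjusted p = 3.4e-05, limma). HOXB6, a trunk-level gene of the same cluster, fell by 0.62 ± 0.06 (adjusted p = 8.4e-05, limma), from 8.32, 8.23 and 8.36 to 7.67, 7.67 and 7.72. These 3 members were the only HOX genes with a change beyond 0.5 log2. After quantile normalization between the arrays the changes were -0.78 for HOXD13, -0.63 for HOXB2 and -0.58 for HOXB6.

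The other members that fell moved less. HOXC5, from the middle of the HOXC cluster, read 6.84, 6.73 and 6.74 in Parent and 6.59, 6.44 and 6.42 in IDTC arrays. It fell by 0.29 ± 0.07 (adjusted p = 0.0097, limma), and the groups did not overlap. HOXB4, known for its part in blood stem cell expansion, read 7.45, 7.37 and 7.33 in Parent and 7.19, 7.09 and 7.04 in IDTC arrays, a fall of 0.27 ± 0.06 (adjusted p = 0.0098, limma). Its neighbour HOXB3 stood at 6.89, 6.96 and 6.96 against 6.67, 6.74 and 6.77, a fall of 0.21 ± 0.05 (adjusted p = 0.015, limma). The call of HOXB3 was lost without Parent 2, without Parent 3 and in the test against a minimum change of 0.5 log2, and its adjusted p was at most 0.057 over the 14 other alternatives. HOXB2, HOXB3 and HOXB4 lie side by side in the cluster.

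Of the members that rose, HOXD8 was the clearer. Its values were 7.62, 7.51 and 7.52 in Parent and 7.93, 7.85 and 7.89 in IDTC arrays, all IDTC values above all Parent values, and the rise was 0.34 ± 0.06 (adjusted p = 0.0019, limma). HOXC13, which is needed for hair and nail keratin expression, read 7.07, 6.98 and 7.08 in Parent and 7.31, 7.27 and 7.18 in IDTC arrays. The rise of 0.21 ± 0.06 (adjusted p = 0.026, limma) was lost after re-centring the arrays on their medians (adjusted p = 0.088) and on leaving out any of Parent 2, Parent 3, IDTC 1 and IDTC 2, with an adjusted p of at most 0.094 over the 14 alternatives besides the test against a minimum change, which also ended the call. HOXD13 and HOXD8, of 1 cluster, thus moved in opposite directions on the same arrays. The HOXD13 value minus the HOXD8 value was 1.53, 1.73 and 1.84 in the Parent arrays and 0.47, 0.62 and 0.45 in the IDTC arrays. This difference within an array does not depend on how the arrays are centred, and it was 1.70 ± 0.16 in Parent and 0.51 ± 0.09 in IDTC arrays (SD, n = 3). The pair was chosen after its values were seen, so the difference is given without a test.

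**Figure D2:**
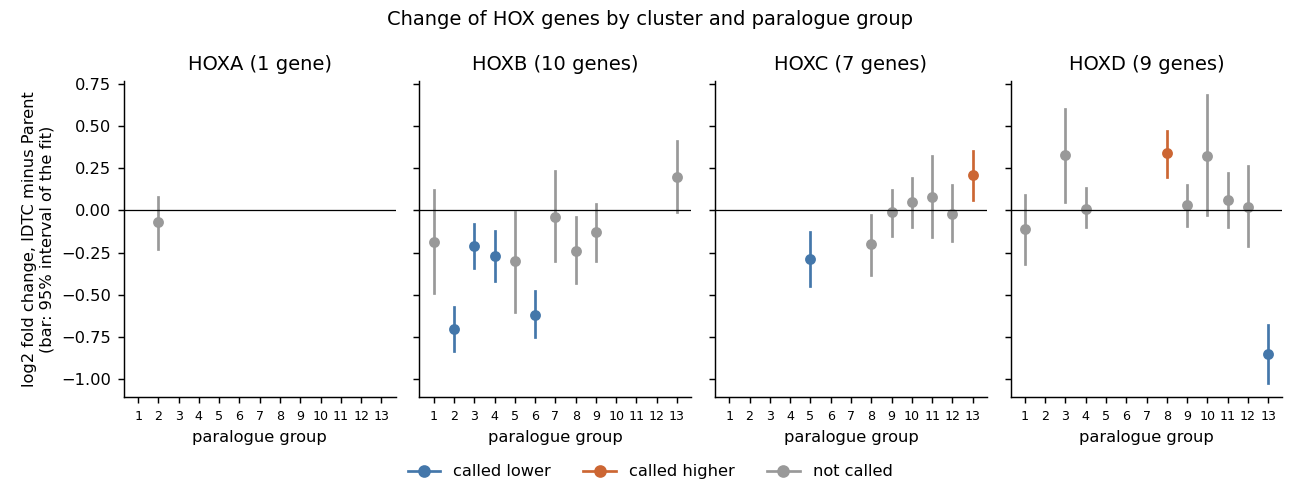
log2 fold change (IDTC minus Parent, vertical axis) of the HOX genes against paralogue group (horizontal axis), 1 panel per cluster. Points are estimates of the limma fit over 3 Parent and 3 IDTC arrays and bars are 95% intervals. The called falls of HOXB lie at groups 2, 3, 4 and 6, while HOXD has its called fall at group 13 and its called rise at group 8.

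The sequences upstream of HOXD13, HOXD8 and HOXC5 are shown because these are the called members for which a promoter window was at hand, and because HOXD13 and HOXD8 moved in opposite directions. Each window holds the 250 bases before the annotated start, 5′ to 3′ on the strand of the gene, from RefSeq on GRCh38.p14. Capitals mark TATAAA (the TATA box core) and CCAAT (the CCAAT box core) on either strand; a CCAAT on the opposite strand appears as ATTGG. HOXD13 is at chr2:176092471-176092720, HOXD8 at chr2:176129455-176129704 and HOXC5 at chr12:54016638-54016887, all on the plus strand.
HOXD13: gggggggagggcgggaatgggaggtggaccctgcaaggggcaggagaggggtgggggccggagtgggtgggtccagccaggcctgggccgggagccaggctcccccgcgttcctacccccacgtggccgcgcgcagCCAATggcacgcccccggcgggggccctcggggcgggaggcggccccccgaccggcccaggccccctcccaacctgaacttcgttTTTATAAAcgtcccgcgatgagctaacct
HOXD8: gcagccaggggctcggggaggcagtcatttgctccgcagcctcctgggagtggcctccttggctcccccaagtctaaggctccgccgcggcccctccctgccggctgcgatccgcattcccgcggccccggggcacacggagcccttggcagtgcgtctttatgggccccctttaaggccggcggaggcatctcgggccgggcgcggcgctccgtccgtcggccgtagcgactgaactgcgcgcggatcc
HOXC5: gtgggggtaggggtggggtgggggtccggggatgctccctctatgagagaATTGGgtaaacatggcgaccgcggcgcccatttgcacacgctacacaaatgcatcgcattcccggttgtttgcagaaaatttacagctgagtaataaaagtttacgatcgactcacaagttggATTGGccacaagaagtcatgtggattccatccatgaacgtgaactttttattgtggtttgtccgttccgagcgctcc

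The HOXD13 window holds TATAAA on both strands as overlapping matches, the forward one from 27 to 22 bases before the start, and a CCAAT from 114 to 110 bases before it. In the HOXD8 window neither motif was found. The HOXC5 window holds 2 CCAAT matches on the opposite strand. RefSeq gives the same window for HOXC4, so this start is not specific to HOXC5. Of the 11 members with a window, 1 held TATAAA (10.7% of all 35116 windows) and 9 held CCAAT (32% of all). TGACAG, the core bound by MEIS and PKNOX proteins, was found in 1 of the 11 (13% of all), and TGATTNAT, bound by HOX and PBX proteins together, in 2 of the 11 (2.48% of all). Both strands were searched, and windows that overlap within a cluster or gene are not independent. GC content was 74.0% for HOXD13, 72.4% for HOXD8 and 50.8% for HOXC5, and the HOX windows had a median of 21 CpG sites against 11 over all windows. A match is a description of the letters in the window.

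Read along the clusters, HOXB had the most called falls. It held 4 called falls and 0 called rises among 10 genes, beside 24.9% of all genes called lower and 21.7% called higher. These falls lay among its 7 genes above the olfactory receptor line. Of all 11936 genes above that line, 4231 were called lower. The HOXB median log2 fold change was -0.22, against -0.01 over all genes. Of the 10 HOXB estimates 9 were below 0, as were 9647 of all 18417 genes. The 4 called HOXB genes of 10 are no larger a share than the 46.6% called among all genes. Leaving out Parent 3 or IDTC 2 left 8 of the 10 below 0. In HOXC 1 of 7 fell and 1 rose (median -0.01), and in HOXD 1 of 9 fell and 1 rose (median 0.03). The HOXC and HOXD medians changed sign under some settings, at 0.02 for HOXC without Parent 3 and -0.05 for HOXD without the dimmest 40% of genes. By position, the anterior paralogue groups 1 to 3 had 2 called falls among 6 genes, the central groups 4 to 8 had 3 falls and 1 rise among 9, and the posterior groups 9 to 13 had 1 fall and 1 rise among 12. Genes of a cluster share regulatory DNA and are not replicates, so these counts were not tested against each other.

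Paralogues of 1 group, which resemble each other more than neighbours do, did not share a direction in every case. In group 13, HOXD13 fell, HOXC13 rose and HOXB13, a prostate gene whose product binds the androgen receptor, stood at 6.65 ± 0.05 in Parent and 6.85 ± 0.17 in IDTC arrays (SD, n = 3, not called, adjusted p = 0.11, limma). In group 8, HOXD8 rose while HOXB8 (-0.24, adjusted p = 0.055, limma) and HOXC8 (-0.20, adjusted p = 0.054, limma) had estimates below 0 that missed the threshold. In group 3, HOXB3 fell and HOXD3 had an estimate of 0.33 (adjusted p = 0.054, limma). In group 5 the estimates were -0.29 for HOXC5, which was called, and -0.30 for HOXB5, which was not (adjusted p = 0.087, limma). The HOXB5 estimate was -0.16 without IDTC 2, and it was -0.42 and called without IDTC 3 (adjusted p = 0.019, limma). HOXB5 varied more between the IDTC arrays, at 5.58, 5.26 and 5.78, than between the Parent arrays, at 5.79, 5.82 and 5.91. Group 9 showed the least movement of the groups with 3 measured genes, with estimates of -0.13 for HOXB9, -0.01 for HOXC9 and 0.03 for HOXD9, none of which was called.

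Among the 19 members not called, estimates ran from -0.30 to 0.33, and 4 of them (HOXB5, HOXB8, HOXC8 and HOXD3) had an unadjusted p under 0.05. The 95% interval of the change lay within 0.5 log2 of 0 for 16 of the 19. The 3 exceptions, HOXB5 (-0.60 to -0.01), HOXD3 (0.05 to 0.60) and HOXD10 (-0.03 to 0.68), were all dim, with means of 5.69, 5.34 and 4.58 over the 6 arrays. HOXB9 was the brightest member not called, at 9.41, 9.39 and 9.36 in Parent and 9.21, 9.39 and 9.16 in IDTC arrays, with an interval of -0.30 to 0.04. HOXC10 read 8.02 ± 0.04 and 8.06 ± 0.08 (interval -0.10 to 0.19), and HOXC9 read 7.13 ± 0.07 and 7.12 ± 0.03 (interval -0.15 to 0.12). HOXB7, a gene studied in melanoma as an activator of FGF2, was dim at 5.53 ± 0.21 and 5.49 ± 0.11 (interval -0.30 to 0.23). HOXA2, which patterns the second pharyngeal arch, read 6.26 ± 0.10 and 6.19 ± 0.04 (interval -0.23 to 0.08). HOXB1, HOXC11, HOXC12, HOXD1, HOXD4, HOXD11 and HOXD12 were not called either, with estimates between -0.19 and 0.08. The groups did not overlap for 11 of the 27 members, 8 lower and 3 higher, which is fewer in proportion than the 54.1% of all genes. Besides the 8 called members these were HOXB5, HOXB8 and HOXD3.

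**Figure D3:**
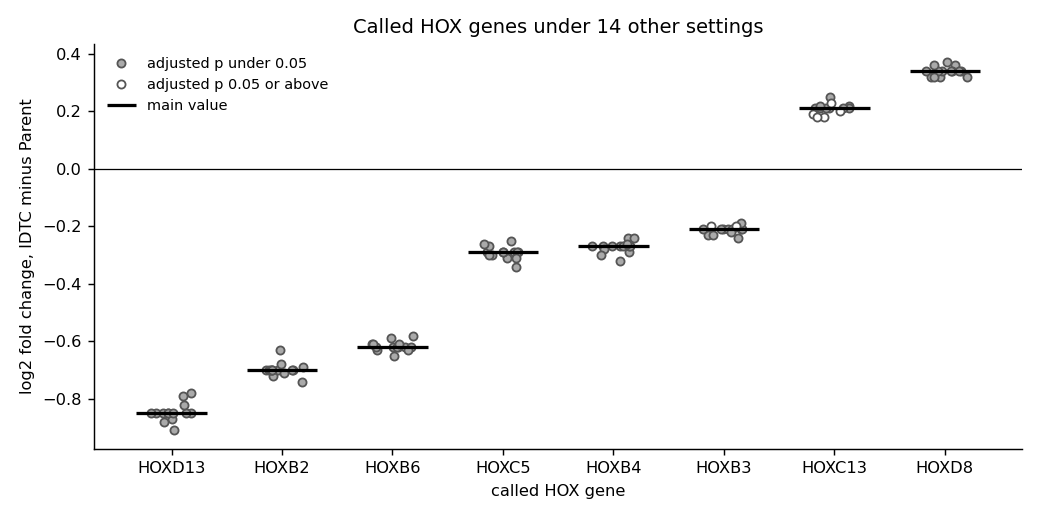
log2 fold change (IDTC minus Parent, vertical axis) of the 8 called HOX genes. Black bars are the main values and circles the values under 14 other settings, of which 2 change the choice of probe set and leave HOX genes as they are; open circles mark an adjusted p of 0.05 or above. Open circles occur for HOXB3 and HOXC13.

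Among the genes for HOX cofactors of the PBX, MEIS and PKNOX families, 7 were measured: 4 had a called rise, 1 a called fall and 2 no call (median 0.23). The 71.4% called stand beside 46.6% of all genes, and 62.2% of the genes above the olfactory receptor line, where all 7 lie. MEIS1, whose product binds DNA together with HOX and PBX proteins, rose by 1.30 ± 0.09 (adjusted p = 1.9e-05, limma), from 7.61, 7.38 and 7.40 in Parent to 8.89, 8.75 and 8.64 in IDTC arrays. Its relative PKNOX2 rose by 1.09 ± 0.05, from 8.47, 8.48 and 8.47 to 9.56, 9.61 and 9.50. MEIS3 rose by 0.47 ± 0.08 and PKNOX1 by 0.23 ± 0.06, PBX3 fell by 0.27 ± 0.08, and MEIS2 and PBX4 were not called, at -0.05 and 0.04. No HOX gene reached the size of the MEIS1 or PKNOX2 change.

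Among 44 homeobox genes outside the clusters there were 10 called rises and 5 called falls (median -0.05), which is 34.1% called, less than the 46.6% of all genes. DLX5, a gene of craniofacial and limb patterning, rose by 2.49 ± 0.11, from 6.80, 6.36 and 6.57 to 9.03, 9.06 and 9.10. PRRX1, a mesenchymal gene, fell by 2.39 ± 0.06, from 9.41, 9.31 and 9.39 to 7.02, 6.98 and 6.93. MSX2 rose by 0.73 ± 0.07. By limma, 0 of 6 CDX and ParaHox genes, the nearest relatives of the HOX clusters, were called, and 0 had a p under 0.05 before adjustment (CDX1 -0.13 ± 0.08, GSX1 -0.10).

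Genes for the chromatin complexes that hold HOX states open or closed changed in both directions. On the Polycomb side 10 of 18 rose, 7 fell and 1 was not called (median 0.22), so that 94.4% were called, beside 62.2% of all genes above the olfactory receptor line, where all 18 lie. The catalytic subunit gene EZH2 fell by 0.90 ± 0.06 while its alternative EZH1 rose by 1.07 ± 0.07, the latter from 7.32 ± 0.03 to 8.39 ± 0.11, and RING1 and CBX7 rose by 0.95 ± 0.05 and 0.93 ± 0.11. On the Trithorax side 15 genes were measured, of which 5 rose and 5 fell (median -0.02), and the 66.7% called are near that 62.2%. DOT1L, a histone H3 methyltransferase gene, fell by 1.39 ± 0.05, WDR5, a shared core subunit of the methyltransferase complexes, fell by 1.08 ± 0.05, PAXIP1 fell by 0.89 ± 0.06, and KMT2A, the best known HOX activator among them, was not called, at 8.55 ± 0.10 and 8.61 ± 0.17. EZH2 and KMT2A were named outside the rule for named genes, after their values were seen. Of 9 cohesin and boundary factor genes, all above the olfactory receptor line, 1 rose and 2 fell, and the 33.3% called are less than that 62.2%. The called genes were SMC1A (-0.73 ± 0.06), NIPBL (0.57 ± 0.08) and STAG1 (-0.30 ± 0.10), and the call of STAG1 was lost without Parent 1, Parent 3, IDTC 2 or IDTC 3. Of 15 genes of retinoic acid supply and reception, a signal that sets anterior HOX expression in embryos, 4 rose and 3 fell. The 46.7% called are near the 46.6% of all genes. The retinol dehydrogenase gene RDH10 fell by 1.45 ± 0.06, and the receptor genes RXRB and RARG rose by 1.16 ± 0.06 and 0.88 ± 0.09.

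**Figure D4:**
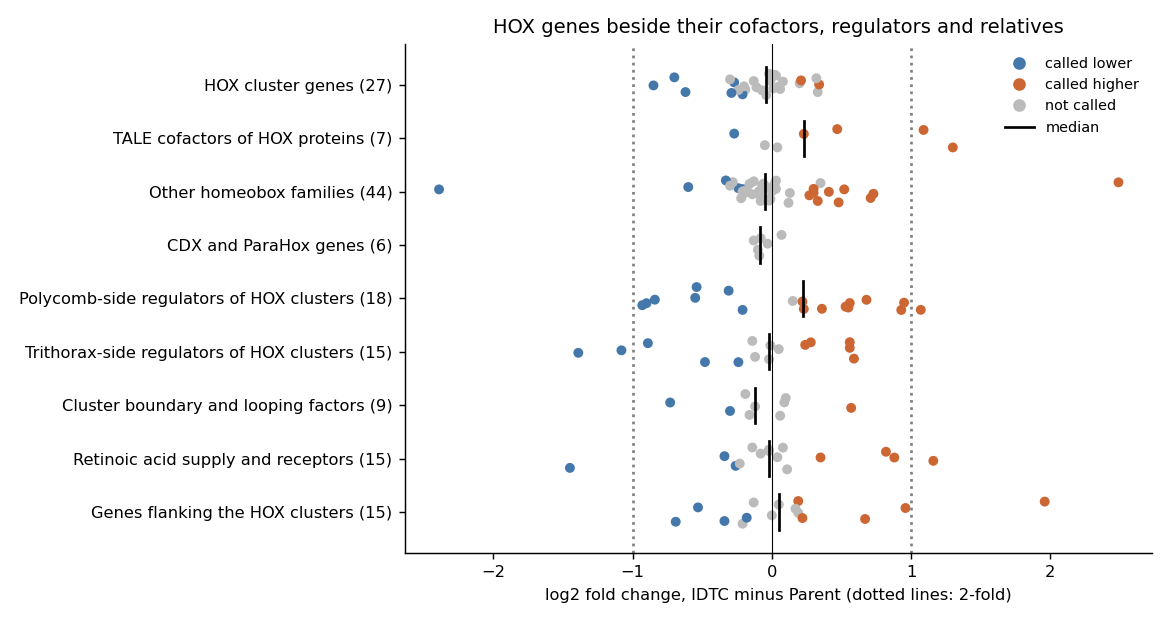
log2 fold change (IDTC minus Parent, horizontal axis) of single genes, for the HOX genes and 8 lists of cofactors, relatives, regulators and neighbours, with the number of measured genes in brackets. Points are genes, coloured by call, black bars are list medians and dotted lines mark a 2-fold change. HOX genes stay between -0.85 and 0.34, whereas DLX5 and PRRX1 of the other homeobox families lie beyond 2.

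At the borders of the clusters, 5 of 15 flanking genes rose, 4 fell and 6 were not called. The 60% called stand beside 46.6% of all genes. All 9 called genes lay among the 13 above the olfactory receptor line, where 62.2% of all genes were called. CALCOCO1 lies next to HOXC13, with 0 protein-coding genes between them in RefSeq. Its rise was 1.96 ± 0.08, from 6.84, 6.91 and 7.11 to 8.95, 8.89 and 8.88. This was larger than the change of any HOX gene, its neighbour HOXC13 included. MTX2, next to HOXD1, fell by 0.69 ± 0.10, while HOXD1 itself stood at 7.46 ± 0.14 and 7.34 ± 0.10 and was not called.

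The clusters also hold microRNA genes whose products are known to act on HOX messages, among them miR-196a, which directs cleavage of the HOXB8 message. The mature sequences from RefSeq (GRCh38.p14) are shown because both microRNAs lie between the measured HOXB genes; capitals mark the seed, bases 2 to 8. miR-196a-5p also comes from a copy in the HOXC cluster.
miR-10a-5p: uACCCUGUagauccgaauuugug
miR-196a-5p: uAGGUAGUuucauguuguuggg

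The probe sets report the host transcript or precursor and not the mature microRNA. They were dim, with means over the 6 arrays of 2.81 for MIR10A, 2.54 for MIR10B, 5.73 for MIR196A1 and 4.95 for MIR196A2, and none was called (estimates from -0.01 to 0.13). HOXB8 read 6.82, 6.82 and 6.87 in Parent and 6.49, 6.54 and 6.78 in IDTC arrays, with IDTC 3 closest to the Parent values. Of 2 antisense RNA genes measured, HOXA-AS2 fell by 0.33 ± 0.10 at a dim level (4.81 ± 0.13 to 4.48 ± 0.16, adjusted p = 0.031, limma), a call lost without Parent 1, Parent 2, IDTC 1 or IDTC 2. HOXB-AS3 was not called, at 6.76 ± 0.08 and 6.59 ± 0.21. Of these 6 noncoding genes 1 (16.7%) was thus called, beside 46.6% of all genes, bright and dim together. As 5 of the 6 lay at or below the olfactory receptor line, the low share cannot be told apart from dim signal.

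Markers of other cell types were set beside these results because fibroblasts carry strong HOX patterns of their own. Of 11 fibroblast markers 2 were called higher and 2 lower, so that 36.4% were called, less than the 46.6% of all genes. The largest called changes were those of LUM (-0.89 ± 0.14), ACTA2 (0.32 ± 0.11) and PDGFRA (-0.28 ± 0.06). The mean of the list was 5.61 to 5.71 in the Parent and 5.62 to 5.64 in the IDTC arrays. The call of ACTA2 was lost under 9 of the 15 alternatives. Of 9 immune markers 1 was called higher and 3 lower, and the 44.4% called are near the 46.6% of all genes. The list mean was 6.15 to 6.20 in Parent and 5.49 to 5.66 in IDTC arrays, with LYZ (-3.03 ± 0.09), FCER1G (-2.13 ± 0.12) and CD68 (-0.76 ± 0.05) lower. Of 8 keratinocyte markers 1 (12.5%) was called, as lower (KRT15, -0.42 ± 0.11, lost without Parent 3), and the list mean was 5.22 to 5.39 and 5.25 to 5.40. By limma, 0 of 9 endothelial markers were called and 0 had a p under 0.05 before adjustment (PLVAP -0.23 ± 0.10). The log2 scale of these arrays has no 0, so absence of a marker cannot be read from it, and the part of such markers in the HOX values was not tested. In bulk RNA, fewer cells with a transcript and less of it in each cell cannot be told apart.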

How the data were processed

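RNA of 6 samples was measured on whole-transcript arrays, 1 array per sample. The deposited table holds log2 expression values for 33297 probe sets. Per the submitters' processing notes, the authors used Affymetrix Expression Console, RMA and Partek 6.6, with the role of each not stated, and the build is not given in the sources used. The medians of the arrays were 6.25 to 6.36 and the interquartile ranges 3.51 to 3.60 in Parent and 3.31 to 3.49 in IDTC arrays, so the arrays do not share 1 distribution, which can shift small differences. The number of arrays limits the precision.

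Platform annotation gave 1 symbol for 19460 probe sets and several for 1754. Each gene was represented by its brightest probe set (mean of 6 arrays), which left 18417 genes. All were fitted together by lmFit and eBayes of limma 3.58.1 (R 4.3.3; 2-sided, without covariates or filter), IDTC minus Parent, and p-values were adjusted by Benjamini-Hochberg over all genes with a threshold of 0.05. Errors of fold changes are standard errors of this fit. The procedure was tested on simulated data.

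Alternatives changed the scaling, the filter on dim genes, the choice of probe set, the variance model, the replicate block, the minimum change (limma treat, 0.5 log2) and left out each array. Members and lists were chosen with earlier results of these data known, so their counts are descriptions without a set test. Named genes were all HOX members, with array values for the called ones, and up to 3 called genes of each list with the largest absolute change (2 genes as values where none was called). The values of 1 flanking gene are not reported here. Other genes named were chosen after their values were seen, among them PKNOX1, PBX3, MEIS2, PBX4, the microRNA genes and HOXB-AS3. Samples with the same number were not treated as pairs.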

Additional observations from a re-analysis of the deposited data

How the results depend on the processing

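Of the 8 called HOX genes, 6 (HOXD13, HOXB2, HOXB6, HOXC5, HOXB4 and HOXD8) kept their direction and call under all 14 alternatives other than the test against a minimum change. The calls of HOXB3 and HOXC13 were lost as given above. Of these 14 alternatives, 2 change the choice of probe set and leave HOX values as they are, since each member had 1 probe set. The filters on dim genes also leave the estimates of the members they keep unchanged. No called HOX gene turned its direction under any alternative run. Against a minimum of 0.5 log2 (limma treat), 2822 genes were called in all, with 0 HOX genes higher and 2 lower, HOXD13 and HOXB2. Counts of HOX genes called with each array left out ran from 1 to 3 higher and from 5 to 9 lower, with 1 higher without Parent 2 or without Parent 3. A further 7 members were called under at least 1 alternative. These were HOXB8 under 6, HOXB5 and HOXC8 under 4 each, and HOXD3 and HOXD10 under 2 each. HOXB9 and HOXB13 were called only without IDTC 2. Re-centring and quantile normalization each gave 9 lower. The HOXD median was -0.05 without the dimmest 40% of genes and ran from 0.01 to 0.08 with each array left out. Same-numbered arrays deviated from their group means with correlations of 0.31, -0.19 and 0.26. These mixed values do not decide whether the numbers are pairs, and the main fit did not pair them. With the replicate number as a block 8855 genes were called, with 3 HOX genes higher and 8 lower. Dim members are limited by signal over background, which the table does not give.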

Other observations

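Several HOX probe sets repeated exactly the same deposited value on different arrays. This held for 6 of 27 HOX genes (22.2%) and 21.9% of all genes. HOXD4 was among them, with rounded values of 7.02 on Parent 1, Parent 2 and IDTC 1. Its exact repeat lies among these arrays, and the rounded values do not show whether all of them match. The group SDs of HOXD4, 0.01 and 0.02, are among the smallest of the members, and a link to the repeated values was not tested. The processing step that leaves repeated values was not found in the sources at hand.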
